A study of Caenorhabditis elegans with 30 samples.

Results

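Young adult Caenorhabditis elegans that lack a working ire-1 gene were compared with wild-type animals while both received RNA interference (RNAi) against pmt-2. The comparison uses 6 of the 30 Affymetrix arrays of the study: 3 labelled IRE1 knockout with pmt-2 RNAi and 3 labelled N2 wild type with pmt-2 RNAi. It is the mutant's mean log2 signal minus the wild-type mean, so a negative difference is a lower signal in the mutant. Other groups read beside it, each with 3 arrays, were the RNAi-treated atf-6 and pek-1 mutants and, on the empty vector pL4440, the ire-1 mutant and wild type. All these animals were raised as synchronised L1 larvae to young adults on RNAi bacteria, with 25 µg/mL of carbenicillin and 1 mM of IPTG, which induces the double-stranded RNA. Nothing in the labels names the alleles or says that replicate arrays are independent cultures, so p-values measure only how arrays spread, which may be technical. The source label of the wild-type RNAi arrays names tunicamycin, whereas their titles and characteristics name pmt-2 RNAi, and the titles were followed. RNA came from whole animals, so fewer cells of a type and less RNA per cell cannot be told apart.

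IRE-1 sits in the membrane of the endoplasmic reticulum (ER) and senses unfolded proteins and a disturbed lipid bilayer. When active it removes an intron from the xbp-1 mRNA, and the XBP-1 protein made from the spliced mRNA turns on genes for chaperones, secretion and lipid synthesis. This is the best known branch of the unfolded protein response (UPR), beside those of ATF-6 and PEK-1. The pmt-2 gene encodes a phosphoethanolamine methyltransferase, which acts on the worm's route to phosphatidylcholine, the main phospholipid of its membranes. Loss of phosphatidylcholine stresses the ER, and the study's title names autophagy as a process that IRE-1 modulates under such stress.

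The 3 mutant arrays were alike, with correlations between 0.993 and 0.994 over 28387 probe sets, while those of the 3 wild-type arrays lay between 0.980 and 0.991. Replicate 2 of wild type stood apart (0.980 and 0.988 with the others). The median SD of a probe set was 0.142 in the mutant, the lowest of the 10 groups of the study, and 0.194 in wild type, the highest. An SD above 1 was found for 17 probe sets in the mutant and 236 in wild type. A mean log2 signal under 5, called dim here, applied to 17789 probe sets in the mutant and 17899 in wild type. Where the lower group is dim, a difference may understate the change in RNA. The number of arrays limits the precision.

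The targeted genes were read before all others. On the 3 ire-1 mutant arrays ire-1 (C41C4.4, chromosome II, 8112214 to 8124788) had log2 signals of 6.07, 6.09 and 5.90, against 8.85, 8.72 and 8.78 in wild type. The groups were far apart and the signal was 6.80-fold lower in the mutant (difference -2.77, SE 0.10, limma adjusted p = 1.55e-15), which goes with the label. Where the mutation lies relative to the probes is not stated in the labels. The RNAi target pmt-2 (F54D11.1), at 4628566 to 4635252 on chromosome V, had 7.52, 7.54 and 7.35 in the mutant and 6.80, 6.65 and 6.45 in wild type. Its signal was higher in every mutant array than in every wild-type array, by 0.84 (SE 0.11, limma adjusted p = 1.85e-05). On vector the order was the other way round, with 9.65 ± 0.05 in the mutant and 10.14 ± 0.07 in wild type (SD, n = 3 each). The RNAi-treated mutant therefore held more pmt-2 signal than the RNAi-treated wild type. This holds for every result given here, and its part in them was not tested.

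Of the 28387 probe sets, 2098 differed between the mutant and wild type at an adjusted p under 0.05 (7.39%), by limma's moderated test with the Benjamini-Hochberg adjustment. In the mutant 1034 were higher (3.64%) and 1064 lower (3.75%). Taken as 25902 genes with 1 probe set each, 944 were higher (3.64%) and 1011 lower (3.9%). Of these genes, 350 were higher and 170 lower by at least 2-fold. The median difference over all probe sets was 0.0006. The test takes each probe set's variance from all 30 arrays, and the wild-type RNAi group varied most. With the variance of the 6 arrays alone, 223 genes were higher (0.861%) and 392 lower (1.51%). Without wild-type replicate 2, 1401 genes were higher (5.41%) and 1066 lower (4.12%). Of the probe sets, 614 were higher without wild-type replicate 1, 624 without wild-type replicate 3 and 617 without mutant replicate 1. The 3 mutant arrays did not overlap the 3 wild-type arrays for 2453 genes that were higher (9.47%) and 2726 that were lower (10.5%). At an unadjusted p under 0.05, 2258 of the 25902 genes were higher and 2279 lower. List counts at these settings are to be read against these values for all genes.

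**Figure D1:**
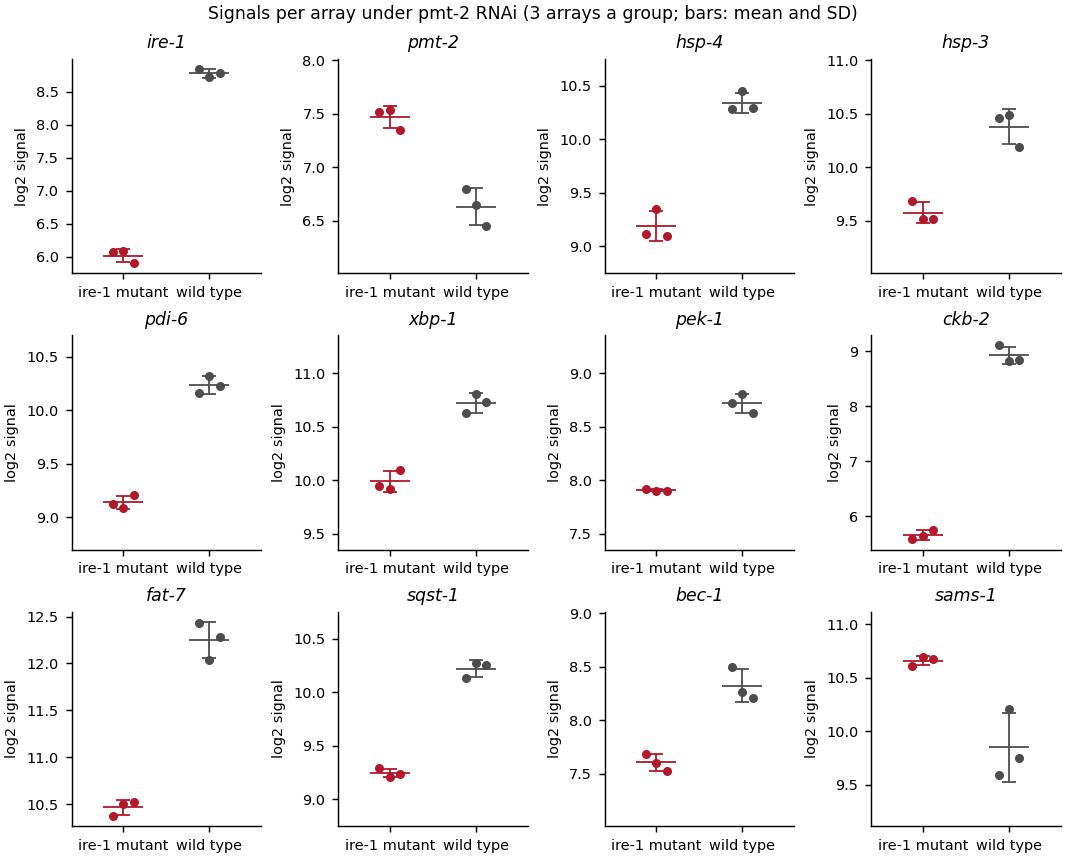
Log2 signals (vertical axes) of 12 genes on each array, with the ire-1 mutant to the left of wild type, both under pmt-2 RNAi; points are arrays, bars the mean and SD of 3 arrays. The groups are apart for all 12 genes; ire-1 and ckb-2 show the widest gaps, at -2.77 and -3.27, and pmt-2 and sams-1 alone are higher in the mutant.

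The gene with the largest fall that belongs to the lipid lists was ckb-2 (B0285.9, chromosome III, 4367804 to 4370132), a choline kinase of the other route to phosphatidylcholine, which starts from choline. Its signals were 5.58, 5.64 and 5.75 in the mutant and 9.11, 8.82 and 8.85 in wild type. The 3 mutant arrays thus lay more than 3 log2 units below the 3 wild-type arrays, a 9.63-fold lower signal (-3.27, SE 0.23, limma adjusted p = 7.98e-10). The cadmium-responsive gene cdr-4 had 5.29, 5.24 and 4.50 in the mutant against 8.11, 7.87 and 7.92 in wild type (-2.96, limma adjusted p = 7.21e-10). The claudin-like gene clc-19 fell by 2.39 and sdz-35, known as a SKN-1-dependent zygotic transcript, fell by 2.59 (limma adjusted p of 1.76e-06 and 1.1e-08). The genes F41B4.3, F22E5.6, kreg-1 and F33H12.7 fell by 3.0, 3.09, 2.48 and 2.37, all to dim means in the mutant. C09G12.5 fell by 2.40, with a dim mean of 2.62 in the mutant. The collagen gene col-98 had 5.11, 5.16 and 5.23 in the mutant and 7.41, 8.57 and 7.79 in wild type (-2.76, limma adjusted p = 1.56e-10). Each of these calls held without any 1 of the 6 arrays and with the variance of the 6 arrays alone.

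The lowest difference of all belonged to bcf-1 (F57F4.4) and the highest to gfi-1 (F57F4.3), which lie side by side on chromosome V, at 6401352 to 6408767 and 6392519 to 6399904, on the same strand. bcf-1 read 3.21, 2.91 and 2.51 in the mutant and 6.96, 8.0 and 7.40 in wild type (-4.58, SE 0.22, limma adjusted p = 5.49e-13). gfi-1 read 8.01, 8.06 and 8.07 in the mutant and 2.60, 3.77 and 3.19 in wild type (4.86, SE 0.23, limma adjusted p = 3.22e-13). The 2 neighbours thus changed in opposite directions, each with a dim group. The same held on vector, where bcf-1 averaged 3.15 ± 0.17 in the mutant and 9.55 ± 0.14 in wild type, and gfi-1 averaged 8.26 ± 0.11 and 4.66 ± 0.28 in the same order (SD, n = 3 each). It also held in the other RNAi-treated mutants: bcf-1 stood at 2.65 ± 0.14 in atf-6 and 2.89 ± 0.21 in pek-1, and gfi-1 at 7.09 ± 0.27 and 7.45 ± 0.08. Against the RNAi-treated atf-6 and pek-1 mutants the ire-1 mutant's bcf-1 signal differed by 0.22 and -0.02, which limma did not call (adjusted p of 0.684 and 0.984). For gfi-1 the difference from atf-6 was 0.95 and was called (limma adjusted p = 0.00909), and that from pek-1 was 0.60 and was not (limma adjusted p = 0.125).

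Among the other large rises were 2 infection response genes. irg-5 read 9.39, 9.04 and 9.41 in the mutant against 6.24, 6.63 and 6.39 in wild type (2.86, SE 0.22, limma adjusted p = 5.01e-09). irg-4 read 6.97, 6.99 and 7.19 against 5.02, 4.94 and 3.96 (2.41, limma adjusted p = 3.92e-07). No mutant array of either gene overlapped wild type. The uncharacterised gene ZK218.5 rose by 3.06, nspb-4 of a nematode-specific peptide family by 2.76, the lipase-related gene lips-6 by 2.48 and F49C5.11, dim in both groups, by 2.24. Wild-type means of ZK218.5, lips-6 and irg-4 were dim. The remaining large rises were genes whose wild-type arrays were widely spread: wrt-4 (2.68), dpy-6 (2.54), R05H11.2 (2.31), abu-7 (2.3) and col-176 (2.23). All of these but abu-7 had a dim wild-type mean. For dpy-6, which encodes a mucin-like protein of the cuticle, the mutant read 6.80, 6.68 and 6.73 and wild type 3.68, 5.36 and 3.53, with replicate 2 the highest. All these calls held without any 1 array, and all but that of abu-7 held with the variance of the 6 arrays.

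The genes of the UPR itself were next. In the list of sensors and factors 0 of 8 rose and 3 fell: ire-1, xbp-1 and pek-1. Among all genes 3.9% fell. As ire-1 is the mutated gene itself, its fall says nothing about the other members. xbp-1, the mRNA that IRE-1 splices, had 9.95, 9.92 and 10.10 in the mutant and 10.63, 10.81 and 10.73 in wild type. Splicing was not read here. The signal was lower in every mutant array (-0.73, SE 0.09, limma adjusted p = 4.7e-06). pek-1, which encodes the kinase of another branch, had 7.92, 7.90 and 7.90 in the mutant and 8.72, 8.81 and 8.63 in wild type (-0.81, limma adjusted p = 9.19e-06). The third sensor gene, atf-6, differed by -0.10 (SE 0.10, limma adjusted p = 0.774). The transcription factor gene atf-4, whose mRNA is translated when PEK-1 is active, differed by -0.13 (SE 0.12, limma adjusted p = 0.703). The groups overlapped for atf-6 and atf-4. At an unadjusted p under 0.05 no member of the list was higher, nor with the variance of the 6 arrays.

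Of 28 genes for ER chaperones and folding enzymes, 13 fell and 2 rose, with a median difference of -0.21. Among all genes 3.9% fell. The variance of the 6 arrays left 6 that fell and 0 that rose. hsp-4, a BiP chaperone long used as the worm's UPR reporter, had 9.12, 9.35 and 9.10 in the mutant and 10.28, 10.45 and 10.29 in wild type. The mutant arrays all lay below wild type, by 1.15 on average (-1.15, SE 0.14, limma adjusted p = 2.93e-06). The second BiP gene, hsp-3, had 9.69, 9.52 and 9.52 against 10.46, 10.49 and 10.19 (-0.81, limma adjusted p = 1.84e-05). Among the other large falls were those of T14G8.3, a relative of the mammalian chaperone HYOU1 (-1.19), the protein disulfide isomerase gene pdi-6 (-1.10) and dnj-7, a J-domain co-chaperone of BiP (-1.01). pdi-6 had 9.12, 9.09 and 9.21 in the mutant and 10.16, 10.32 and 10.23 in wild type, again with no overlap. These 5 calls held without any 1 array and with the variance of the 6 arrays.

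Later steps of the secretory pathway were read next, against 3.9% of all genes that fell and 3.64% that rose. Of 22 genes for ER-associated degradation, which returns misfolded proteins to the cytosol, 3 fell and 0 rose, with a median of -0.11. cup-2, a derlin, had 9.46, 9.46 and 9.36 in the mutant and 10.00, 9.82 and 9.74 in wild type (-0.43, SE 0.08, limma adjusted p = 0.00103). Of 39 genes for translocation, N-glycosylation and ER-Golgi transport, 3 fell and 0 rose, with a median of -0.07. The vesicle fusion gene sec-22 fell by 0.72 (limma adjusted p = 8.93e-05) and sec-12, which loads the coat GTPase SAR-1, by 0.34 (limma adjusted p = 0.007). With the variance of the 6 arrays limma called 0 members of these lists. At an unadjusted p under 0.05, 1 gene of the degradation list was higher and 6 lower, and 6 and 7 in the transport list. Over all 25902 genes 2258 were higher and 2279 lower at that limit. Without wild-type replicate 2, 5 genes of the degradation list fell and 1 rose, against 4.12% and 5.41% of all genes.

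**Figure D2:**
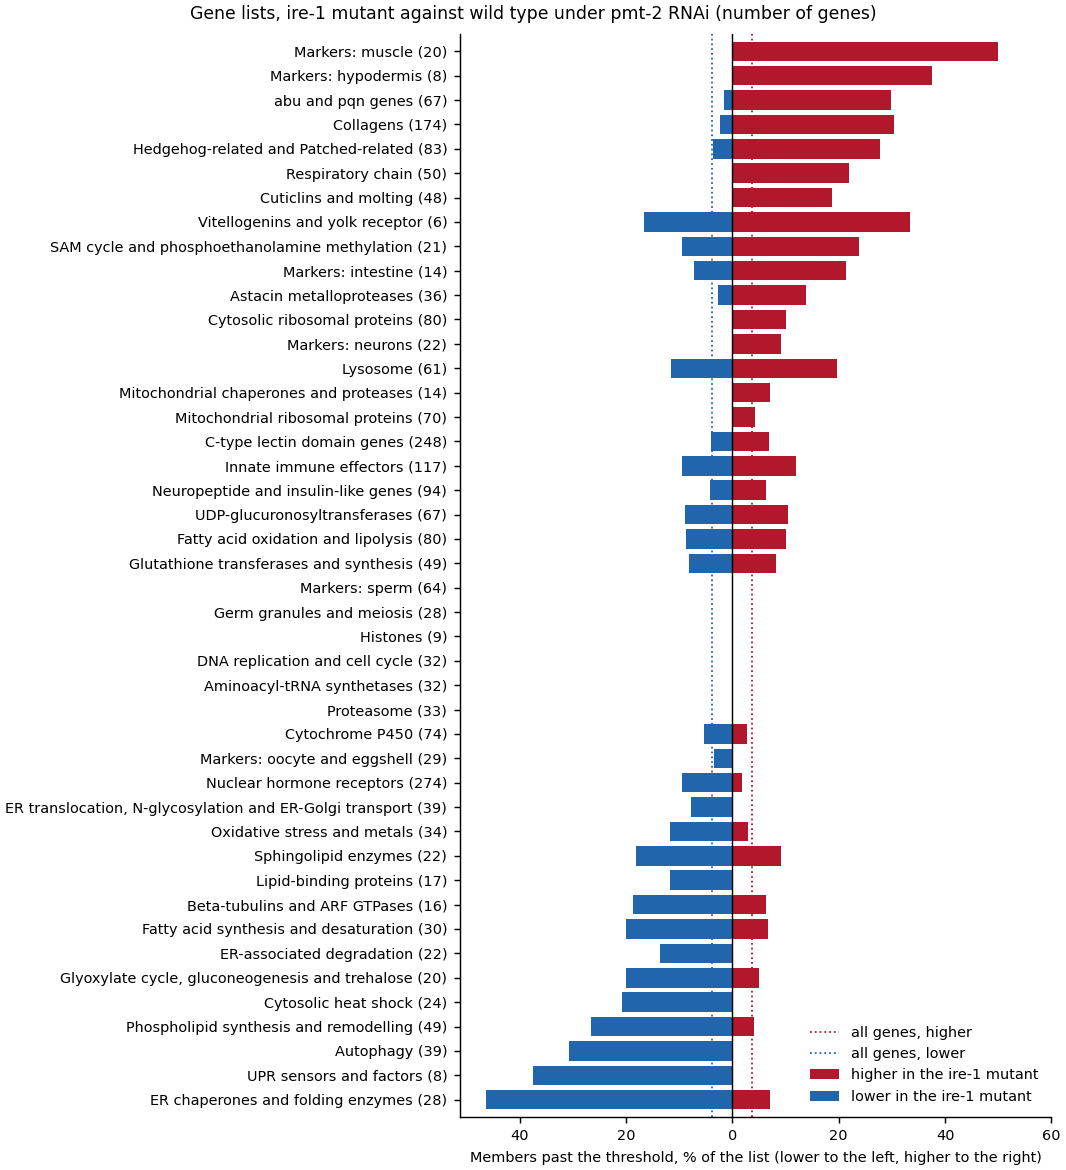
Share of the members of 44 gene lists past the threshold, in % (horizontal axis), higher in the RNAi-treated ire-1 mutant to the right and lower to the left; dotted lines are the shares of all genes (3.64% and 3.9%), and the number of genes stands after each list name. ER chaperones, UPR factors and autophagy reach furthest to the left (13 of 28, 3 of 8 and 12 of 39 genes), and muscle and hypodermis markers furthest to the right (10 of 20 and 3 of 8). The 3 UPR factors include ire-1, the mutated gene itself.

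The enzymes of membrane lipids came next, against 3.9% of all genes that fell and 3.64% that rose. Of 49 genes for phospholipid synthesis and remodelling 13 fell and 2 rose (median -0.09), the rises near the share of all genes. 3 still fell with the variance of the 6 arrays: ckb-2, ipla-2 and acl-12. ipla-2, a calcium-independent phospholipase A2, had 8.03, 8.01 and 8.12 in the mutant and 9.29, 9.19 and 9.27 in wild type (-1.20, SE 0.09, limma adjusted p = 5.98e-09). acl-12, an acyltransferase-like gene, had 8.49, 8.57 and 8.79 against 9.83, 9.84 and 9.69 (-1.17, limma adjusted p = 9.21e-07). Neither gene's groups overlapped. Of 22 genes for sphingolipid enzymes, 4 fell and 2 rose (2 and 0 with the variance of the 6 arrays), with a median of -0.08. The sphingomyelin synthase gene sms-2 had 5.60, 5.84 and 5.87 in the mutant against 7.62, 7.15 and 7.57 in wild type (-1.68, limma adjusted p = 5.09e-09). The acid sphingomyelinase gene asm-1 fell by 0.56 (limma adjusted p = 0.00359). The ceramide synthase gene lagr-1, dim in both groups, rose by 0.88 (limma adjusted p = 0.00373, and 0.0504 with the variance of the 6 arrays).

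Methyl groups for phosphatidylcholine come from S-adenosylmethionine (SAM). Of 21 genes of the SAM cycle and of phosphoethanolamine methylation 5 rose and 2 fell (2 and 0 with the variance of the 6 arrays), with a median of 0.03. Over all genes 3.64% rose and 3.9% fell. sams-1, the SAM synthetase gene linked to phosphatidylcholine in the worm, had 10.61, 10.69 and 10.68 in the mutant and 9.59, 10.21 and 9.75 in wild type. It was higher in every mutant array (0.81, SE 0.12, limma adjusted p = 3.58e-05), with an adjusted p of 0.0554 by limma on the variance of the 6 arrays. folt-2, a folate transporter, had 7.19, 8.04 and 7.70 against 5.73, 6.25 and 5.93 (1.67, limma adjusted p = 7.15e-05). cbs-1, a cystathionine beta-synthase, fell by 0.68 (limma adjusted p = 0.000285, and 0.0634 with the variance of the 6 arrays). pmt-1, which catalyses the step before that of pmt-2, had 11.55, 11.52 and 11.60 in the mutant and 11.77, 11.99 and 11.91 in wild type. The groups did not overlap and the difference of -0.34 was called (limma adjusted p = 0.0351), but the call was lost without wild-type replicate 2 or 3 and without any mutant array, with adjusted p-values between 0.0277 and 0.117 over the arrays left out.

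All 3 genes for the delta-9 desaturases, which put the first double bond into fatty acids, were lower in the mutant. fat-7 had 10.37, 10.50 and 10.52 in the mutant and 12.43, 12.04 and 12.28 in wild type (-1.79, SE 0.18, limma adjusted p = 2.75e-07). fat-6 had 11.16, 11.06 and 11.10 against 11.81, 11.83 and 11.69 (-0.67, limma adjusted p = 0.000144). fat-5 had 7.60, 7.29 and 7.52 against 8.59, 8.56 and 8.46 (-1.07, limma adjusted p = 0.00673). The signal of fat-7 was thus 3.46-fold lower, and no array of the 3 genes overlapped the other group. nhr-49, a nuclear receptor that drives the desaturases, had 9.36, 9.31 and 9.31 against 10.06, 9.92 and 9.93 (-0.64, limma adjusted p = 4.85e-06). In the whole list of 30 genes for fatty acid synthesis and desaturation 6 fell and 2 rose (median -0.13), against 3.9% and 3.64% of all genes. With the variance of the 6 arrays the counts were 5 and 0. fat-7, fat-6, fat-5 and nhr-49 kept their calls without any 1 array.

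Fatty acid breakdown showed no common direction: 8 of 80 genes rose and 7 fell, with a median of -0.03. Over all genes 3.64% rose and 3.9% fell. cpt-3, a carnitine palmitoyltransferase for import into mitochondria, fell by 1.18 to a dim mean (limma adjusted p = 5.78e-05), ech-1.1, an enoyl-CoA hydratase gene, by 0.94 with both groups dim, and acs-17, an acyl-CoA synthetase gene, by 0.92. pmp-5, a peroxisomal transporter of the ABC family, rose by 1.05 (limma adjusted p = 3.04e-05). Of 17 lipid-binding proteins 2 fell and 0 rose (3 and 0 at an unadjusted p under 0.05, and 1 and 0 with the variance of the 6 arrays), and far-7, a fatty acid and retinol binding protein, had the larger fall (-1.09, limma adjusted p = 0.000279). Of 20 genes of the glyoxylate cycle, gluconeogenesis and trehalose metabolism 4 fell and 1 rose, against 1 and 0 with the variance of the 6 arrays. The trehalose synthase gene tps-2 fell by 0.65 and the PEP carboxykinase gene pck-2 by 0.45, and neither call held with that variance (limma adjusted p of 0.0853 and 0.103).

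The yolk genes did not move together, where 3.64% of all genes rose and 3.9% fell. Of 6 genes for vitellogenins and the yolk receptor, 2 rose and 1 fell, and without wild-type replicate 2, 1 rose and 2 fell. The second rise, that of vit-4 (1.45, limma adjusted p = 0.0371), lost its call when single arrays were left out, that replicate among them. vit-1 had 9.16, 10.13 and 9.98 in the mutant and 7.98, 7.92 and 7.96 in wild type (1.80, SE 0.37, limma adjusted p = 0.00231). vit-2 had 10.97, 10.93 and 11.06 against 11.79, 11.55 and 11.66 (-0.68, SE 0.12, limma adjusted p = 0.000318). These genes are close in sequence, so probes of one may also read another. On vector both were lower in the mutant, at 11.15 ± 0.16 against 12.62 ± 0.09 for vit-1 and 10.82 ± 0.10 against 11.68 ± 0.18 for vit-2 (SD, n = 3 each).

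Autophagy carries cell contents to the lysosome and is the process named in the study's title. Of 39 autophagy genes, 12 fell and 0 rose, with a median difference of -0.28, against 3.9% of all genes that fell. Taking the variance of the 6 arrays, 5 fell and 0 rose, where 1.51% of all genes fell. Without wild-type replicate 2, 16 fell and 0 rose, where 4.12% of all genes fell. At an unadjusted p under 0.05, 25 were lower and 1 higher, against 2279 and 2258 of all 25902 genes. The groups did not overlap for 23 genes that were lower and 1 that was higher, against 10.5% and 9.47% of all genes. sqst-1, the worm's p62 cargo receptor, had 9.29, 9.21 and 9.24 in the mutant and 10.13, 10.27 and 10.26 in wild type (-0.97, SE 0.10, limma adjusted p = 9.04e-07). bec-1, the worm's Beclin, had 7.69, 7.60 and 7.53 against 8.5, 8.26 and 8.21 (-0.72, limma adjusted p = 1.68e-05). Both genes were lower in every mutant array. atg-2, a lipid transfer protein of the growing autophagosome, fell by 0.67 (limma adjusted p = 0.00059), and dct-1, a mitophagy receptor related to mammalian BNIP3, by 0.78 (limma adjusted p = 7.69e-06). These 4 calls held without any 1 array and with the variance of the 6 arrays.

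Other well known autophagy genes were not called. lgg-1, the LC3 relative on the autophagosome membrane, had 11.55, 11.44 and 11.47 in the mutant and 11.71, 11.88 and 11.75 in wild type. The arrays did not overlap, but the difference of -0.29 (SE 0.10) had a limma adjusted p of 0.0953. hlh-30, which encodes the TFEB-like activator of autophagy and lysosome genes, had 9.08, 8.86 and 9.14 against 8.81, 9.31 and 9.18, with overlap and a difference of -0.07 (SE 0.14, limma adjusted p = 0.898).

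The lysosome list was mixed, where 3.64% of all genes rose and 3.9% fell. Of 61 genes 12 rose and 7 fell (median 0.11), against 1 and 4 with the variance of the 6 arrays and 21 and 6 without wild-type replicate 2. The shares of all genes were 0.861% and 1.51% with that variance, and 5.41% and 4.12% without that replicate. asp-13, an aspartyl protease gene, had 8.27, 8.18 and 8.35 in the mutant and 6.54, 6.81 and 6.65 in wild type (1.6, SE 0.18, limma adjusted p = 1.13e-06). asp-17, of the same family, had 7.23, 7.37 and 7.47 against 9.16, 8.39 and 8.95 (-1.48, limma adjusted p = 6.79e-06). These relatives thus changed in opposite directions. cpr-3, a cathepsin B relative, had 7.13, 7.18 and 7.39 against 8.71, 9.38 and 8.92 (-1.77, limma adjusted p = 6.21e-08). aman-1, a lysosomal alpha-mannosidase gene, read 3.85, 3.67 and 3.79 in the mutant, a dim level, against 6.12, 5.62 and 5.72 (-2.05, limma adjusted p = 4.48e-10). Of 33 proteasome genes limma called 0, also at an unadjusted p under 0.05 and with the variance of the 6 arrays. Their median was -0.03, and the largest differences were those of rpn-13 (-0.17, SE 0.10) and pbs-4 (0.16, SE 0.11). Of 32 aminoacyl-tRNA synthetase genes limma called 0 (1 higher and 0 lower at an unadjusted p under 0.05, and 0 with the variance of the 6 arrays), with a median of 0.

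Genes known to respond to other stresses were mostly lower where called, with 3.9% of all genes lower and 3.64% higher. In the list of beta-tubulins and ARF GTPases 3 of 16 fell and 1 rose. tbb-6, a divergent beta-tubulin, had 9.11, 8.94 and 9.12 in the mutant and 10.13, 10.33 and 9.98 in wild type (-1.09, SE 0.16, limma adjusted p = 5.91e-05). warf-1, an ARF GTPase gene, had 8.35, 8.31 and 8.3 against 10.34, 9.78 and 10.16 (-1.77, limma adjusted p = 5.29e-07). arl-3, of the same GTPase family, fell by 0.67 (limma adjusted p = 0.00107). No array of tbb-6, warf-1 or arl-3 overlapped the other group. The span of arl-3 lies within that of tps-2 on the same strand, so their falls (0.67 and 0.65) may not be separate. Of 24 genes for cytosolic heat shock proteins 5 were lower and 0 higher (2 and 0 with the variance of the 6 arrays, and 9 and 1 at an unadjusted p under 0.05), with a median of -0.11. hsp-17, a small heat shock protein gene that was dim in the mutant, had 4.82, 4.71 and 4.65 against 5.62, 6.0 and 5.64 (-1.02, limma adjusted p = 9.21e-06). Of 34 genes for oxidative stress and metals 4 fell and 1 rose (2 and 0 with the variance of the 6 arrays). The superoxide dismutase gene sod-3 fell by 1.00 and the metallothionein gene mtl-1 by 0.82, both with a dim mutant mean. Of 14 mitochondrial chaperones and proteases 1 rose and 0 fell (3 and 2 at an unadjusted p under 0.05), and the call, of the chaperonin gene hsp-60 (0.31, limma adjusted p = 0.0163), was not kept with the variance of the 6 arrays (0.24).

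Immune and detoxification genes were called in both directions, where 3.64% of all genes rose and 3.9% fell. Of 117 innate immune effectors 14 rose and 11 fell, and 66 were dim in both groups. Without wild-type replicate 2, 25 rose and 9 fell, and with the variance of the 6 arrays 10 rose and 5 fell. The shares of all genes were 5.41% and 4.12% without that replicate, and 0.861% and 1.51% with that variance. Beside the rises of irg-5 and irg-4, the lysozyme gene lys-3 had 5.67, 5.43 and 5.39 in the mutant and 6.55, 8.42 and 7.44 in wild type (-1.98, SE 0.34, limma adjusted p = 0.000308). sysm-1 fell by 2.36 (limma adjusted p = 4.95e-09), with a dim mutant mean of 4.41. Of 248 C-type lectin domain genes 17 rose and 10 fell (9 and 5 with the variance of the 6 arrays), and 196 were dim in both groups. The lectin falls are near the share of all genes. clec-10 rose by 1.63 and clec-72 by 1.75, while clec-221 fell by 1.74 (limma adjusted p of 2.18e-07, 0.000199 and 3.69e-05). clec-72 was dim in both groups, and wild type was dim for clec-10 and the mutant for clec-221.

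Among drug-metabolising enzymes 2 of 74 cytochrome P450 genes rose and 4 fell, 7 of 67 UDP-glucuronosyltransferase genes rose and 6 fell, and 4 of 49 genes for glutathione transferases and synthesis rose and 4 fell. The P450 counts are near the shares of all genes (3.64% and 3.9%). Between 31 and 54 genes of each of these lists were dim in both groups. With the variance of the 6 arrays the counts were 1 and 1, 4 and 2, and 0 and 1. ugt-47 had 8.27, 8.28 and 8.16 in the mutant and 6.96, 7.19 and 6.92 in wild type (1.21, limma adjusted p = 1.17e-06). ugt-4 fell by 1.26 (limma adjusted p = 4.85e-06), cyp-33C8 by 0.98 (limma adjusted p = 0.000139) and gst-22 by 0.93 (limma adjusted p = 7.09e-05), while cyp-13A2 rose by 1.1 (limma adjusted p = 0.000375). The mutant was dim for ugt-4 and wild type for cyp-13A2. Each of these 5 genes kept its call without any 1 array and with the variance of the 6 arrays.

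The list with the most calls was that of the cuticle collagens. Of 174 collagen genes 53 rose and 4 fell, with a median of 0.64, against 3.64% of all genes that rose. 20 of 67 abu and pqn genes rose and 1 fell (median 0.22); the abu genes are named for their activation when the UPR is blocked. 23 of 83 hedgehog-related and Patched-related genes rose and 3 fell (median 0.24), 9 of 48 cuticlin and molting genes rose and 0 fell (median 0.23), and 5 of 36 astacin metalloprotease genes rose and 1 fell (median 0.20). The wild-type arrays disagreed on these genes. Median collagen signals were 6.19, 5.84 and 5.97 on the mutant arrays and 4.66, 5.95 and 5.03 on wild-type replicates 1, 2 and 3. For the abu and pqn genes they were 6.78, 6.59 and 6.64 in the mutant and 5.46, 6.59 and 5.98 in wild type. For the collagens and the abu and pqn genes wild-type replicate 2 thus read as high as the mutant, and replicates 1 and 3 read lower.

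**Figure D3:**
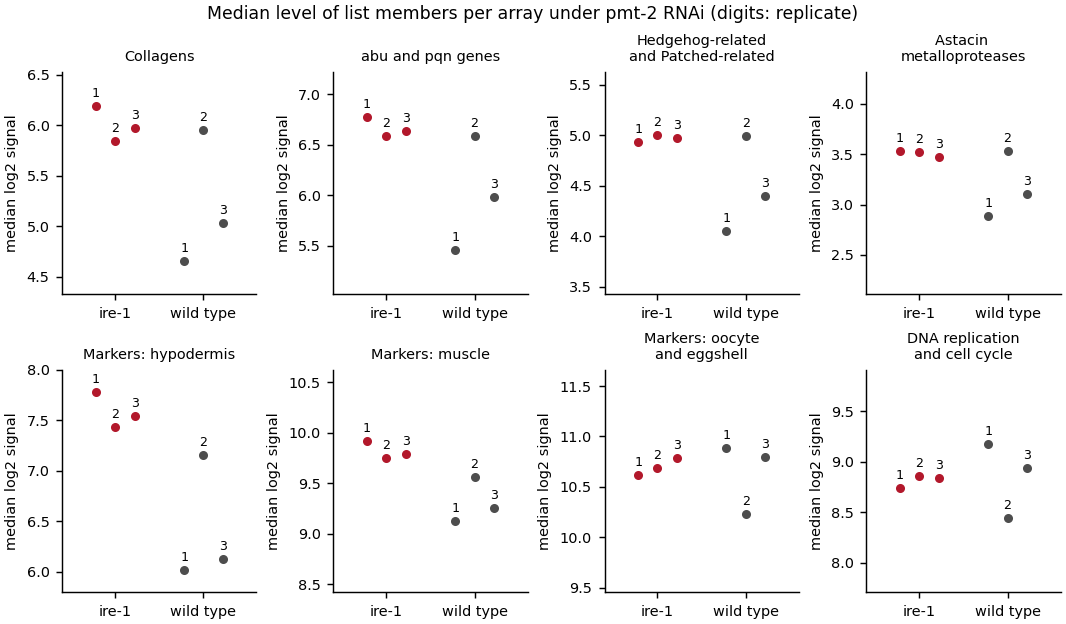
Median log2 signal (vertical axes) of the members of 8 gene lists on each array under pmt-2 RNAi, with the ire-1 mutant to the left of wild type and the replicate number above each point. For collagens, abu and pqn, hedgehog-related and astacin genes wild-type replicate 2 lies at the mutant level and replicates 1 and 3 below it; for oocyte and DNA replication genes replicate 2 is the lowest of the 6.

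With the variance of the 6 arrays, 8 collagen genes rose and 2 fell, and 1, 5, 1 and 1 genes rose in the abu and pqn, the hedgehog-related, the cuticlin and molting and the astacin lists, with 1 fall, in the hedgehog-related list. Over all genes 0.861% rose and 1.51% fell with that variance. Without wild-type replicate 2, 93 collagens rose and 5 fell, and 27, 35, 12 and 12 genes rose in the same lists. Without that replicate 5.41% of all genes rose and 4.12% fell, so rises were more frequent over all genes too (3.64% with all arrays). abu-7 had 9.85, 9.45 and 9.44 in the mutant and 5.70, 8.74 and 7.40 in wild type (2.3, SE 0.46, limma adjusted p = 0.00178). Leaving out 1 array gave between 1.51 and 3.03, with 1.51 without wild-type replicate 1, and the call was lost with the variance of the 6 arrays (limma adjusted p = 0.132). Likewise col-79 rose by 2.09, abu-6 by 2.19, nas-14 by 1.53 and nas-15 by 1.71, and these calls too held only with the variance of all arrays. Wild type was dim for col-79 and nas-15. wrt-4, a hedgehog-related gene, had 7.94, 7.53 and 7.53 in the mutant against 4.25, 5.66 and 5.06 (2.68, limma adjusted p = 1.73e-06). grd-1, of the same family, rose by 1.58 (limma adjusted p = 2.43e-05), the fibrillin gene fbn-1 by 1.53 (limma adjusted p = 0.000132) and col-176 by 2.23 (limma adjusted p = 3.93e-06), and these 4 calls held under both choices. Wild-type means of wrt-4, grd-1 and col-176 were dim. mlt-10, needed for molting, rose by 1.61 (limma adjusted p = 0.000266, and 0.0512 with the variance of the 6 arrays). Some of these differences were also there without RNAi. On vector the mutant minus wild type was 2.05 for abu-7 and 1.89 for abu-6, but 0.41 for col-176 and 0.27 for grd-1.

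Markers of tissues were read beside them. Of 20 muscle markers 10 rose and 0 fell (median 0.46), and the groups did not overlap for 16 that were higher. Over all genes 3.64% rose and 3.9% fell, and 9.47% were higher without overlap. dim-1, a muscle protein gene, had 10.09, 9.98 and 10.20 in the mutant and 9.25, 9.51 and 9.49 in wild type (0.67, SE 0.10, limma adjusted p = 6.68e-05), the one muscle call that held with the variance of the 6 arrays. Of 8 hypodermis markers 3 rose and 0 fell (median 0.52), and 0 rose with the variance of the 6 arrays. Of these rises, rol-6 (0.85) and wrt-2 (1.30) had mutant arrays that overlapped wild type. Both calls were lost when single arrays were left out. bus-8B, a glycosyltransferase gene of the hypodermis, had 7.82, 7.53 and 7.76 against 4.96, 7.0 and 5.67 (1.83, limma adjusted p = 0.000865), a call lost with that variance (limma adjusted p = 0.087). Of 22 neuron markers 2 rose and 0 fell, and 0 rose with the variance of the 6 arrays (4 were higher and 2 lower at an unadjusted p under 0.05). Of 14 intestine markers 3 rose and 1 fell, the GATA factor gene elt-7 (-0.80, limma adjusted p = 0.00123). The rises, of ifc-2, pept-1 and vha-6 (0.49, 0.41 and 0.48), were lost with the variance of the 6 arrays and when single arrays were left out, where the fall of elt-7 was kept. Median signals of the hypodermis markers were 7.78, 7.43 and 7.54 in the mutant and 6.02, 7.16 and 6.13 in wild type. The part of tissue make-up in the other results was not tested.

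Germline lists had few calls, where 3.64% of all genes rose and 3.9% fell. Of 64 sperm markers, 28 genes for germ granules and meiosis, 32 for DNA replication and the cell cycle and 9 histone genes limma called 0, also with the variance of the 6 arrays. At an unadjusted p under 0.05, 1, 2, 0 and 0 of these were higher and 1, 0, 1 and 2 lower. Of 29 oocyte and eggshell markers 1 fell, the eggshell gene perm-4 (-0.41, limma adjusted p = 0.0122), and the call was lost with the variance of the 6 arrays. Median signals of the oocyte markers were 10.62, 10.69 and 10.79 in the mutant and 10.89, 10.23 and 10.80 in wild type. For DNA replication they were 8.74, 8.86 and 8.84 against 9.18, 8.44 and 8.94. Wild-type replicate 2 was therefore the lowest of the 6 arrays for these lists, where it was the highest of wild type for the cuticle lists. Without it 4 oocyte markers and 2 replication genes fell, and 1 sperm marker and 1 germ granule gene rose. Over all genes 4.12% fell and 5.41% rose without that replicate.

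Genes for ribosomes and the respiratory chain were called in one direction where they were called. Of 80 cytosolic ribosomal protein genes 8 rose and 0 fell (median 0.19), of 50 respiratory chain genes 11 rose and 0 fell (median 0.17), and of 70 mitochondrial ribosomal protein genes 3 rose and 0 fell (median 0.18), against 3.64% of all genes that rose; the count of the mitochondrial ribosomal list is near that share. The groups did not overlap for 47, 35 and 29 genes of these lists that were higher, against 9.47% of all genes, and for 2, 0 and 0 that were lower. The ATP synthase gene asb-2 had 9.92, 9.89 and 9.89 in the mutant and 9.45, 9.61 and 9.45 in wild type (0.40, SE 0.08, limma adjusted p = 0.0024). cox-6C rose by 0.41 and ucr-2.2, of complex III, by 0.47 (limma adjusted p of 0.00247 and 0.000384). rps-14 rose by 0.33 (limma adjusted p = 0.00832), mrps-7 by 0.44 and mrpl-12 by 0.46. With the variance of the 6 arrays limma called 0 genes of these 3 lists, where 0.861% of all genes rose. With the variance of all arrays, 38, 25 and 24 were higher and 0 lower at an unadjusted p under 0.05. Over all 25902 genes 2258 were higher and 2279 lower at that limit. Without wild-type replicate 2, 17 cytosolic ribosomal protein genes rose, where 5.41% of all genes rose.

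Nuclear hormone receptors, a family much enlarged in the worm, fell more often than they rose: 26 of 274 fell and 5 rose, with 185 dim in both groups and a median of -0.10. Over all genes 3.9% fell and 3.64% rose. The variance of the 6 arrays left 10 receptors that fell and 2 that rose. nhr-1 had 7.69, 7.86 and 7.85 in the mutant and 8.72, 8.64 and 8.79 in wild type (-0.91, SE 0.09, limma adjusted p = 2.62e-07). nhr-74, dim in wild type, rose by 1.61 and nhr-43 by 0.86 (limma adjusted p of 1.31e-05 and 4.95e-05). Of 94 neuropeptide and insulin-like genes 6 rose and 4 fell (1 and 2 with the variance of the 6 arrays). The falls in this list are near the share of all genes. The insulin-like genes ins-31 and ins-14 differed by -1.06 and 0.86 (limma adjusted p of 0.000167 and 0.00862), both with a dim mean in each group.

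The difference between the mutant and wild type under RNAi was then set beside the same difference on vector. The comparisons share no arrays with each other, and their difference was tested as an interaction, in which 1775 probe sets were called (6.25%), or 809 genes that were higher (3.12%) and 843 that were lower (3.25%). A negative interaction means that the mutant's difference from wild type was lower under RNAi than on vector. In the autophagy list 11 genes were called with a negative interaction and 1 with a positive one, and in the ER chaperone list 5 and 0. For respiratory chain, cytosolic and mitochondrial ribosomal protein genes 17, 26 and 12 were called with a positive interaction and 0 with a negative one. In the collagen list 13 were positive and 3 negative, and in the abu and pqn list 2 and 2. The interactions of abu-7 and abu-6 (0.26 and 0.29) were not called, and those of col-176 and grd-1 (1.82 and 1.31) were.

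sqst-1 differed in direction. Under RNAi it averaged 9.25 ± 0.04 in the mutant and 10.22 ± 0.08 in wild type, and on vector 8.28 ± 0.03 in the mutant and 6.91 ± 0.20 in wild type (SD, n = 3 each). The mutant's difference was thus -0.97 under RNAi and 1.37 on vector (interaction -2.35, SE 0.15, limma adjusted p = 2.61e-10). tbb-6 averaged 9.06 ± 0.10 in the mutant and 10.14 ± 0.18 in wild type under RNAi, and 7.67 ± 0.25 and 4.98 ± 0.19 in the same order on vector (SD, n = 3 each; interaction -3.78, limma adjusted p = 1.45e-10). warf-1, cpr-3, asp-17 and dct-1 were also lower in the mutant under RNAi and had positive differences on vector (2.18, 1.43, 2.28 and 0.53), with interactions of -3.95, -3.20, -3.75 and -1.31. ipla-2, acl-12, nhr-49 and atg-2 fell under RNAi and differed by between 0.01 and 0.16 on vector (interactions of -1.32, -1.33, -0.65 and -0.77).

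For 3 chaperone genes the mutant's difference was more negative under RNAi than on vector. hsp-4 differed by -1.15 under RNAi and averaged 9.25 ± 0.01 in the mutant and 9.76 ± 0.16 in wild type on vector, a difference of -0.51 there (interaction -0.64, limma adjusted p = 0.0466). pdi-6 and T14G8.3 had -0.53 each on vector, with interactions of -0.57 and -0.66 (limma adjusted p of 0.0222 and 0.0139). The interactions of hsp-3 (-0.37), xbp-1 (-0.33), pek-1 (-0.43) and dnj-7 (-0.18) were not called. For fat-7 the difference of -1.79 under RNAi was less negative than that of -3.17 on vector, where it averaged 5.39 ± 0.13 in the mutant and 8.57 ± 0.32 in wild type (interaction 1.39, limma adjusted p = 0.000818). sms-2 was lower on vector too (-1.87), with an interaction of 0.19 that was not called. aman-1 and col-98 were lower by 3.35 and 5.33 on vector, and their interactions were 1.29 and 2.57.

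**Figure D4:**
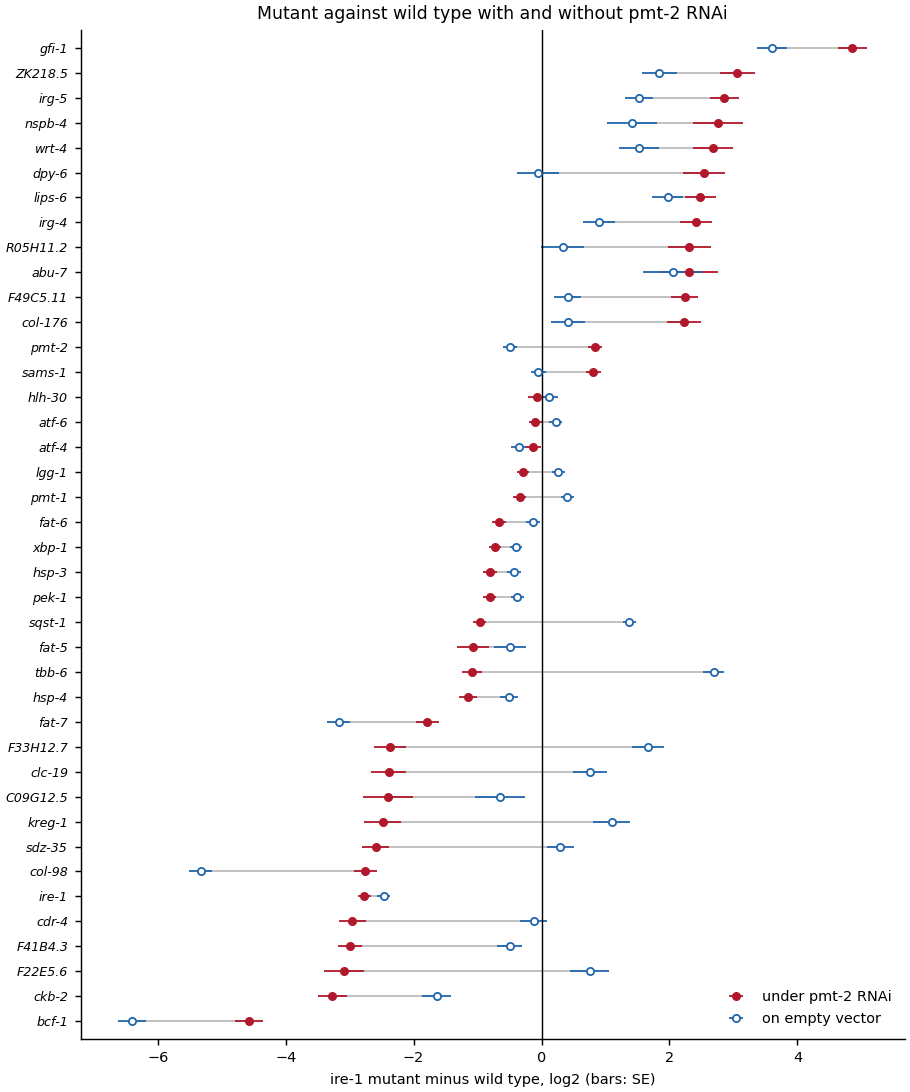
Difference of the ire-1 mutant from wild type in log2 units (horizontal axis), under pmt-2 RNAi (filled points) and on empty vector (open points), for 40 genes; bars are the SE of each difference, from 3 arrays a group. tbb-6 and sqst-1 lie right of 0 on vector, at 2.69 and 1.37, and left of it under RNAi, while ire-1 and hsp-3 lie on the same side in both.

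The RNAi-treated ire-1 mutant was last set against the RNAi-treated mutants of the other sensors. These comparisons use the same ire-1 arrays, so their values are given side by side and not as separate support. Against the atf-6 mutant 2157 probe sets were called (7.6%), 1325 higher in ire-1 (4.67%) and 832 lower (2.93%). Against the pek-1 mutant 2169 were called (7.64%), 968 higher (3.41%) and 1201 lower (4.23%). hsp-4 averaged 9.19 ± 0.14 in ire-1, 10.26 ± 0.03 in atf-6, 10.90 ± 0.01 in pek-1 and 10.34 ± 0.10 in wild type (SD, n = 3 each). pdi-6 averaged 9.14 ± 0.06, 10.04 ± 0.07, 10.83 ± 0.09 and 10.24 ± 0.08 in the same order. Both genes were lower in ire-1 than in the atf-6 mutant (-1.07 and -0.90) and than in the pek-1 mutant (-1.71 and -1.69), each past limma's threshold.

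ckb-2 averaged 5.66 ± 0.09 in ire-1, 8.95 ± 0.23 in atf-6, 10.10 ± 0.04 in pek-1 and 8.92 ± 0.16 in wild type. Its difference was -3.29 against atf-6 and -4.44 against pek-1 (limma adjusted p of 8.49e-10 and 1.19e-12). sqst-1 and bec-1 were also lower than in both other mutants, sqst-1 by 0.75 and 0.99 and bec-1 by 0.53 and 0.53. irg-5 averaged 9.28 ± 0.21 in ire-1, 6.05 ± 0.44 in atf-6, 7.09 ± 0.18 in pek-1 and 6.42 ± 0.19 in wild type, and was higher in ire-1 than in each. For tbb-6 the differences from the other mutants were not called (-0.44 and -0.45, limma adjusted p of 0.11 and 0.0967). The pek-1 signal differed by -0.31 from that in the atf-6 mutant (limma adjusted p = 0.0708).

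The cuticle genes gave another pattern. abu-7 averaged 9.58 ± 0.24 in ire-1, 7.41 ± 0.26 in atf-6, 9.54 ± 0.27 in pek-1 and 7.28 ± 1.52 in wild type, so ire-1 was higher than atf-6 by 2.17 (limma adjusted p = 0.00353) and differed from pek-1 by 0.04 (limma adjusted p = 0.983). col-79 differed by 2.63 from atf-6 and by 0.65 from pek-1, and wrt-4 by 3.24 and 0.99 (limma adjusted p of 0.000198 and 0.464 for col-79, and of 1.68e-07 and 0.0464 for wrt-4). pmt-2 itself averaged 7.47 ± 0.11 in ire-1, 6.74 ± 0.20 in atf-6, 7.20 ± 0.11 in pek-1 and 6.63 ± 0.17 in wild type. pmt-2 was higher in ire-1 than in atf-6 by 0.73 (limma adjusted p = 0.000146) and its difference from pek-1 was 0.27 (SE 0.11, limma adjusted p = 0.178).

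**Figure D5:**
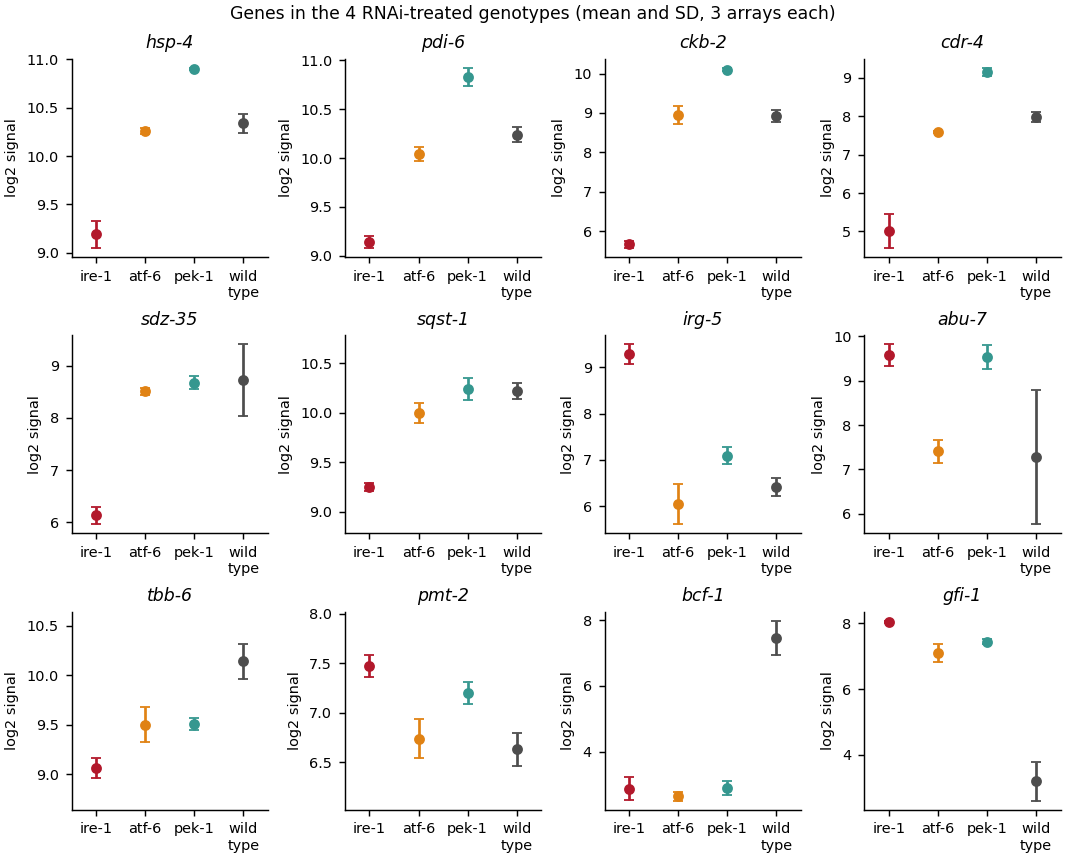
Mean log2 signal with SD (vertical axes) of 12 genes in the RNAi-treated ire-1, atf-6 and pek-1 mutants and wild type, 3 arrays each. hsp-4, pdi-6 and ckb-2 are lowest in ire-1, irg-5 is highest there, abu-7 is high in ire-1 and pek-1, and bcf-1 and gfi-1 set wild type apart from all 3 mutants.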

How the data were processed

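RNA of whole animals was hybridised to 1 Affymetrix array per sample. The authors deposited log2 signals made with RMA, per the submitters' processing notes, whose version and the genome build are not given in the sources used here. RMA corrects background and normalises the arrays together, so a level is relative to the other arrays. Deposited biweight averages and SDs per group, also log2, served as an alternative. Probe sets were named from the authors' tables (28387, of which 25930 carried 1 name, 651 several and 1806 none) and symbols were updated in RefSeq through the locus (25562 matched, 2533 updated). A gene is its probe set with the highest mean over the 6 arrays. 930 probe sets of the value table were not in those tables and were left out.

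Differences were tested with limma 3.58.1 in R 4.3.3 on the log2 signals of all 30 arrays, with 10 group means, Benjamini-Hochberg adjustment over 28387 probe sets and a threshold of 0.05. The script was tested on simulated data in which all groups had the same spread, unlike the 2 groups compared here. Of the simulated calls 6.79% were false, and 35.4% of 1.5-fold and 81.4% of 2-fold changes were called. Groups followed the titles. Genes were named by rule: the targeted genes, the 12 largest rises and the 12 largest falls without overlap, up to 4 called members of each of 44 gene lists with the largest change (up to 2 where none was called), and 16 fixed genes. The members and lists were chosen with earlier results of these data known. The lists are not fully separate, as 16 genes were in more than 1 of them. Alternatives were the variance of the compared arrays alone, the biweight averages, arrays centred on their medians, dim probe sets left out, a variance trend, the replicate number as a block, and each array left out. No sequences were used.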

Additional observations from a re-analysis of the deposited data

Results flagged for a closer look

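For 26 of the 40 genes plotted for RNAi and vector the difference of the mutant from wild type under RNAi was not the same as that on vector, by limma's test of the interaction at an adjusted p under 0.05. Many of the 40 genes were chosen as the largest rises or falls under RNAi. The interaction holds that same difference from the same arrays, so the choice favours calls in advance. The share of 26 in 40 therefore cannot be read against the 6.25% of all probe sets called in the interaction. The values here are the difference under RNAi minus that on vector, in log2 units. Negative values were those of F33H12.7 (-4.04), F22E5.6 (-3.84), tbb-6 (-3.78), kreg-1 (-3.57), clc-19 (-3.15), sdz-35 (-2.88), cdr-4 (-2.84), F41B4.3 (-2.50), sqst-1 (-2.35), ckb-2 (-1.63), pmt-1 (-0.74), hsp-4 (-0.64), lgg-1 (-0.55) and fat-6 (-0.54). Positive values were those of sams-1 (0.86), gfi-1 (1.26), pmt-2 (1.33), irg-5 (1.34), fat-7 (1.39), irg-4 (1.52), col-176 (1.82), bcf-1 (1.82), F49C5.11 (1.83), R05H11.2 (1.97), col-98 (2.57) and dpy-6 (2.60). Of these genes lgg-1 was not called in the comparison under RNAi itself, and pmt-1 lost its call there when single arrays were left out.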

How the results depend on the processing

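Between the mutant and wild type under RNAi limma called 2098 probe sets with the variance of all arrays and 683 with that of the 6 arrays alone (269 higher and 414 lower), and 656 of the 683 were among the 2098. Leaving out 1 array gave between 1393 and 2614 calls, with 614 to 1497 higher and 776 to 1117 lower. The interaction with vector had 1096 calls with the variance of its 12 arrays. Leaving out 1 array gave 1215 to 1970 calls against the atf-6 mutant (1215 without ire-1 replicate 1 and 1260 without atf-6 replicate 3) and 1396 to 1716 against the pek-1 mutant (1396 without pek-1 replicate 3 and 1420 without ire-1 replicate 2). The biweight averages gave 2568 calls, centred arrays 2076, the variance trend 2404 and the filter on dim probe sets 2402.

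Deviations of same-numbered arrays of the mutant and wild type from their group means had correlations of -0.220, -0.171 and 0.055. Those of differently numbered arrays lay between -0.088 and 0.258. With 3 arrays a group these values cannot tell whether equal numbers mark paired samples. With the replicate block 2147 probe sets were called, 2020 of them among the 2098.

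Of 153 called named genes, 68 lost the call with the variance of the 6 arrays, 3 with the block, 3 with biweight averages, 2 with centred arrays and 0 with the variance trend. Between 9 and 33 lost it when 1 array was left out. The uncalled differences of hlh-30 (0.03 without wild-type replicate 2 and 0.01 without mutant replicate 2) and of the replication gene psf-1 (-0.01 without wild-type replicate 2) changed sign. Over the arrays left out they ran from -0.22 to 0.03 and from -0.01 to 0.50. The number of arrays and dim signals limit these results, and the causes of the changes were not tested.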

Other observations

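The share of genes called between the mutant and wild type under RNAi was 7.0% on chromosome I, 7.04% on II, 7.19% on III, 7.43% on IV, 7.07% on V and 9.28% on X. Within 1 Mb of ire-1, 20 genes were higher and 25 lower of 647 (6.96%).

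A second group of neighbours with large differences lies on chromosome V. ZK218.5 (17101108 to 17101958) read 6.21, 5.31 and 5.24 in the mutant and 2.32, 2.55 and 2.73 in wild type. ZK218.11 (17107506 to 17108394), chosen after its values were seen, read 4.71, 4.62 and 4.55 in the mutant and 2.78, 2.67 and 2.69 in wild type (1.92, limma adjusted p = 2.79e-06), with both groups dim.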
